A study of Mus musculus with 15 samples.

Results

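The whole stomachs of mice shortly before and shortly after birth were compared with those of older suckling pups. The perinatal group held the transcriptomes of the embryonic day E18.5, the day after birth (D1) and day 3 (D3), and the late suckling group held those of day 5 (D5), week 1 (W1) and week 2 (W2), so 6 of the 15 samples of the series were used. All 6 came from C57BL/6 mice with no named treatment, allele or genetic change, and each time point had 1 transcriptome. Time points therefore stood in for replicates, and the spread within a group holds the change with age as well as the difference between animals. The study describes whole stomachs from pups whose sex was not distinguished up to the age of W2, with 1 stomach in a sample after E18.5. The number of stomachs in the E18.5 sample itself is not stated. Time points were assigned to the groups by the age in the labels. The comparison and the gene lists themselves were chosen with earlier results of these data known.

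The mouse stomach joins 2 epithelia. The forestomach is lined by a stratified squamous epithelium that cornifies, and the glandular stomach carries pit and neck mucous cells, acid-secreting parietal cells, enzyme-secreting chief cells, endocrine cells and chemosensory tuft cells. During suckling the stomach receives milk, which chymosin clots, and the adult enzyme and acid programme is laid down while the pup still feeds on it. In whole organs, fewer cells of a type and less RNA per cell cannot be told apart.

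The unit was FPKM, in which the fragments of a transcript are divided by its length and by the size of the library. Entries that shared a gene symbol were summed, which gave 44788 symbols, and 15804 of them reached 1 FPKM at one or more of the 6 time points and were tested. The FPKM values of a sample summed to between 840297 at D5 and 963430 at W2, and the 10 most abundant symbols held from 20.03% of that sum at D1 to 32.6% at W1. The relative depth of the libraries, read from entries that rest on 1 fragment, ranged from 1 to 1.2 times that of E18.5. Below, the values of a gene are listed in the order E18.5, D1 and D3 against D5, W1 and W2, and the groups of a gene are called apart, or the gene separated, where all 3 values of one group lie above all 3 of the other.

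The labelled tissue was checked against gastric markers. Chymosin (Cym, chr3:107211295-107221732 on GRCm38), the milk-clotting protease, measured 35716, 50223 and 73934 against 71608, 117136 and 106792 FPKM. The subunits of the gastric proton pump, Atp4a and Atp4b, measured at least 216 FPKM in every library, and the intestinal master regulators Cdx1 and Cdx2 stayed below 1 FPKM in all of them. The methods of the study name liver as the tissue that RNA was taken from, whereas the labels name stomach. The hepatocyte product albumin (Alb) measured 14.6, 461 and 25.8 against 3.08, 15.9 and 1.81 FPKM.

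Several libraries stood apart in markers of other tissues or in sex. At D1 the 14 tested hepatocyte products summed to 1697 FPKM, against 266 to 642 at the other time points, and alpha-2-HS-glycoprotein (Ahsg) reached 242 FPKM there. At D3 the list of pancreatic acinar enzymes summed to 224 FPKM, against 23.2 to 81.8 elsewhere, led by chymotrypsinogen (Ctrb1) with 84.5 FPKM. The adult erythroid list summed to 5688, 4547 and 852 against 2163, 2614 and 479 FPKM, and all 10 tested members had a negative difference. Skeletal muscle genes summed to 206 FPKM at W2, against 87.9 to 147 elsewhere. Xist, which is transcribed from the inactive X chromosome of females, measured 16.52, 0.149 and 0.0924 against 0.155, 22.8 and 0.143 FPKM. The Y-linked gene Ddx3y measured 6.75, 10.3 and 11.3 against 10.5, 0.0553 and 9.15 FPKM. Transcripts of both sexes were thus present at E18.5, the W1 library carried the female pattern, and the other libraries carried the male one. The part of these differences in the results was not tested. Counts of separated members without a time point are given, for the lists whose counts are printed, where they differ by more than 1.5 times and more than 2 genes from the count with all 6.

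First, the size of the contrast was set beside the size of the changes inside each group. The root-mean-square difference between 2 time points over the tested genes, on the log2(FPKM + 1) scale, lay between 0.48 and 0.51 for the 3 pairs inside the perinatal group and between 0.43 and 0.54 for the 3 pairs inside the late suckling group. For the 9 pairs across the groups it lay between 0.39 and 0.70. The ranges overlapped, and the closest of all 15 pairs was D3 with D5, a pair across the border. D3 also lay closer to W1 (0.42) than to E18.5 or D1 (0.48 for both). W2 lay farther from D3 (0.55).

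**Figure D1:**
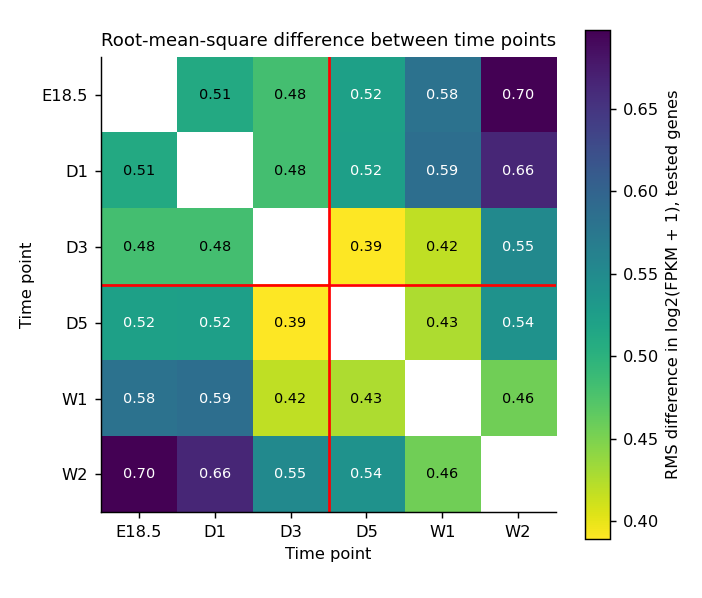
Root-mean-square difference in log2(FPKM + 1) over the 15804 tested genes for each pair of the 6 time points, with red lines at the border between the groups. The smallest value, 0.39, is that of D3 with D5, and the largest, 0.70, that of E18.5 with W2.

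No single gene passed the test. With limma on log2(FPKM + 1) and Benjamini-Hochberg adjustment over the 15804 genes, 0 genes were higher (0%) and 0 lower (0%) in late suckling stomachs at an adjusted p under 0.05, and the smallest adjusted p was 0.168. At an unadjusted p under 0.05, 593 genes (3.75%) were higher and 973 (6.16%) lower. A test without moderation called 1 gene, Wdr25, whose values barely varied inside each group (1.73, 1.72 and 1.74 against 2.36, 2.36 and 2.35 FPKM). This gene was named after its values were seen. A fit on all 15 time points in 4 age groups called 5 genes higher, Adipoq, Car9, Fkbp6, Glod5 and Npw, and 1 lower, Kynu. Fkbp6 and Npw were named after their values were seen. For a single value, 3 time points against 3 cannot give an exact permutation p below 0.10. All differences below are therefore descriptions, given as the difference of mean log2(FPKM + 1) with its limma standard error, and every adjusted p named here comes from that fit.

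Genes were also counted whose 3 values in a group all lay on one side of the 3 values of the other group. Of the tested genes, 870 (5.5%) were separated in this way with higher values in late suckling stomachs, and 1729 (10.9%) with lower values. After median-ratio scaling the split was more even, with 1266 higher (8.01%) and 1194 lower (7.56%). The median difference of all tested genes was -0.08 on the log2 scale as deposited and -0.01 after this scaling. A steady course was rare, since 127 genes had a higher value and 212 a lower value at each of the 5 steps from E18.5 to W2. Counts of members below are read against 5.5% and 10.9%. Leaving out a time point raised these counts, to 1198 higher and 2159 lower without E18.5, 1346 and 3179 without D1, 1694 and 3010 without D3, 1599 and 4599 without D5, 1578 and 2081 without W1 and 1185 and 2423 without W2. Counts of members without a time point are read against those.

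Among the genes with the smallest p that were higher in late suckling stomachs, Car3 came first. Car3 (chr3:14863538-14872381) encodes carbonic anhydrase III, an enzyme abundant in adipocytes and muscle, and it measured 1.17, 0.593 and 1.25 against 7.59, 7.59 and 5.69 FPKM. Its difference was 1.997 ± 0.19 (SE), with an adjusted p of 0.168. Car9, a membrane carbonic anhydrase of the gastric epithelium (chr4:43507026-43513725), measured 2.24, 2.95 and 2.75 against 9.81, 16.4 and 28.9 FPKM. Car3 was level over the late group, whereas Car9 was higher at each later time point of it. Adiponectin (Adipoq), a hormone of adipocytes, was listed at 0 in the perinatal libraries and measured 1.46, 2.40 and 2.17 FPKM in the late ones (adjusted p = 0.273).

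The rest of the 15 leading higher genes covered several functions. Prostaglandin D2 synthase (Ptgds) measured 2.37, 2.34 and 3.03 against 6.55, 8.99 and 5.97 FPKM. The endothelial protein C receptor (Procr), which aids the activation of protein C on vessels, measured 7.45, 8.06 and 10.5 against 16.3, 17.0 and 16.02 FPKM. Insulin-like 3 (Insl3), a hormone of the relaxin family, measured 1.83, 2.9996 and 3.66 against 8.05, 7.90 and 13.6 FPKM. The differences of these 3 genes were 1.18, 0.87 and 1.49. Glod5, a glyoxalase-domain gene, measured 2.22, 3.56 and 3.82 against 8.98, 16.6 and 18.8 FPKM. The uncharacterised transcript 1810010D01Rik measured 36.7, 71.5 and 74.2 against 222, 219.8 and 566 FPKM, the highest level of the 15 genes. Dbp and Cd74 also belong here and are described with their groups below. The other 5 of the 15 were uncharacterised transcripts, LOC102633941, LOC102634141, Scarletltr, 2210409E12Rik and 4930594M22Rik. None of these exceeded 18.99 FPKM at any of the 6 time points, the value of 4930594M22Rik at W1, and LOC102634141, 2210409E12Rik and 4930594M22Rik were listed at 0 in all perinatal libraries.

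Among the 15 leading lower genes, chosen in the same way, Dmbt1 had the smallest p. Dmbt1 (chr7:131032057-131121628), a scavenger receptor protein of mucosal secretions, measured 112, 95.5 and 115 against 21.5, 31.3 and 41.9 FPKM (difference -1.78 ± 0.23 (SE), adjusted p = 0.273). Olfactomedin 4 (Olfm4, chr14:80000154-80023136), known as a marker of intestinal stem cells, measured 172, 71.1 and 77.1 against 11.8, 16.6 and 3.60 FPKM, the largest difference of the 30 genes (-3.29 ± 0.53 (SE)). Upk3bl (chr5:136057212-136069971), a uroplakin-like membrane protein, measured 34.7, 33.4 and 10.9 against 2.87, 1.99 and 1.32 FPKM (difference -3.03 ± 0.43 (SE)). Upk3bl was lower at each successive time point. Claudin 3 (Cldn3), a tight junction protein, measured 8.51, 10.6 and 5.80 against 2.52, 2.83 and 1.40 FPKM. The cartilage matrix protein chondroadherin (Chad) measured 77.2, 53.0 and 60.6 against 26.8, 27.9 and 28.1 FPKM. The differences of Cldn3 and Chad were -1.51 and -1.16. Kynureninase (Kynu), an enzyme of tryptophan breakdown, measured 5.02, 3.40 and 5.44 against 1.51, 0.975 and 0.271 FPKM. Cysteine dioxygenase (Cdo1), which starts taurine synthesis, measured 22.8, 25.1 and 23.2 against 13.96, 14.1 and 10.8 FPKM. The retinol dehydrogenase Dhrs9, the serine protease Prss32, the RNA helicase Mov10 and the slow troponin Tnnt1 had differences between -1.07 and -0.72. Zcchc5, LOC102635966, Rptn and Ednrb complete the list.

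**Figure D2:**
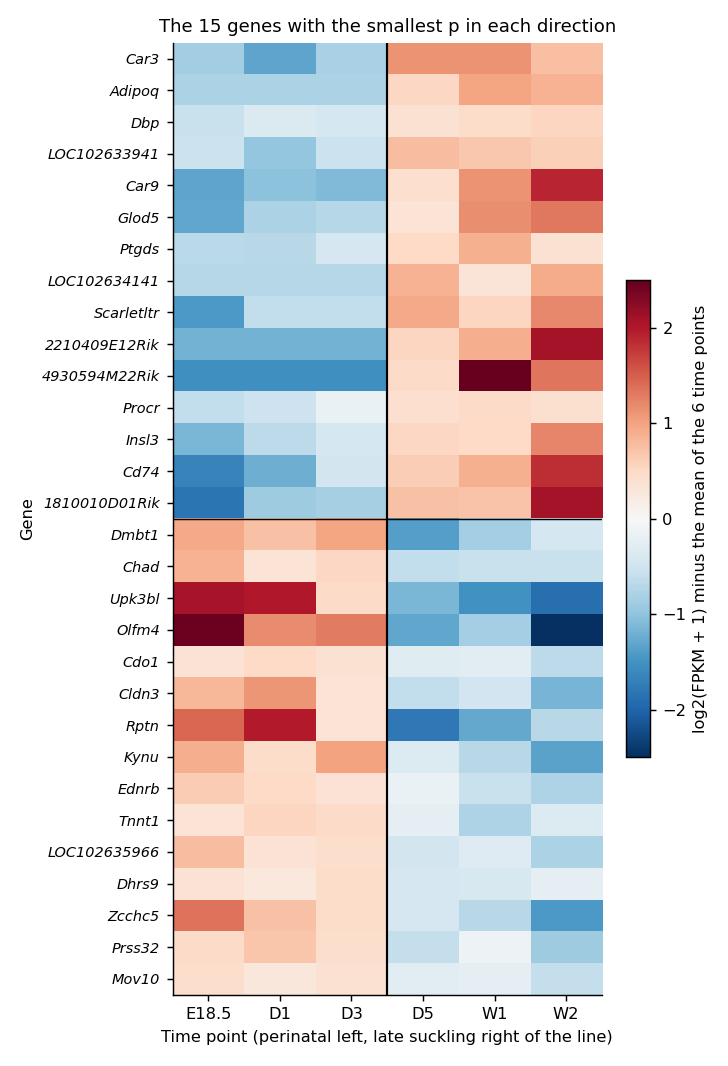
The 30 genes with the smallest p whose groups did not overlap, 15 higher above and 15 lower below the horizontal line. Colour gives log2(FPKM + 1) minus the gene's mean over the 6 time points, and the vertical line separates the perinatal from the late suckling time points; in every row all cells on one side are redder than all cells on the other.

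Genes of gastric endocrine cells had higher means in late suckling stomachs, and 5 were apart. All 16 tested members of the endocrine list had a positive difference, with a median of 0.66, and the 5 separated ones compare with 5.5% of all genes. Ghrelin (Ghrl, chr6:113716119-113721710), the appetite hormone, measured 116, 208 and 467 against 704, 719.9 and 2819.6 FPKM, and its difference was 2.32 ± 0.65 (SE). Somatostatin (Sst, chr16:23889581-23890844), which restrains gastrin and acid release, measured 29.1, 51.6 and 173 against 311, 301 and 1039.9 FPKM, and its difference was 2.83 ± 0.70 (SE). Ghrl was higher at every step, whereas Sst at W1 lay slightly below D5. Proglucagon (Gcg) measured 5.08, 6.77 and 7.18 against 12.1, 11.5 and 21.9 FPKM. Chromogranin A (Chga), a core protein of secretory granules, measured 9.84, 18.53 and 33.0 against 67.6, 43.2 and 167 FPKM. The fifth separated member was the transcription factor Isl1, with a difference of 0.65.

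Gastrin differed from these in its course. Gast, the antral hormone that drives acid secretion, measured 5.32, 10.9 and 173 against 169.5, 93.3 and 72.9 FPKM. Its step lay between D1 and D3, inside the perinatal group, and its level then declined from D5 to W2. Histidine decarboxylase (Hdc), which makes histamine in enterochromaffin-like and mast cells, measured 0.795, 1.93 and 2.64 against 3.29, 1.54 and 9.14 FPKM and overlapped. Without D3, 12 of the 16 endocrine members were separated upward instead of 5, and without W1 10.

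Many genes of acid secretion in parietal cells were higher from D5 on. Of 21 tested members, 11 were separated upward and 0 downward, with a median difference of 0.57. The proton pump subunit Atp4a (chr7:30712213-30725534) measured 216, 334 and 372 against 634, 516 and 1149 FPKM (difference 1.27 ± 0.33 (SE), adjusted p = 0.409). Its partner Atp4b measured 327, 492 and 472 against 624, 671 and 1329.7 FPKM. The potassium channel Kcnq1, which returns potassium to the pump, measured 8.56, 9.75 and 13.1 against 19.9, 18.51 and 27.2 FPKM. All 3 were apart between the groups, and the smallest gap as a ratio was that of Atp4b, from 492 FPKM at D1 to 624 FPKM at D5. The channel subunit Kcne2 and the channel Kcnj16 differed by 1.0005 and 1.34. The somatostatin receptor Sstr2, which mediates inhibition of acid secretion, measured 0.994, 1.38 and 1.35 against 1.83, 2.11 and 5.26 FPKM. Leaving out one time point gave 11 to 14 members separated upward, and 1 downward without D1 and without W2.

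Several products of the chief cell, among them lipid-digesting ones, were also higher. Of 11 tested members, 9 had a positive and 2 a negative difference, and 5 were separated upward, with a median of 1.05. The median was 0.26 without E18.5 and 0.53 without W2. Without W1, 7 members had a positive difference. Phospholipase A2 group IB (Pla2g1b, chr5:115465116-115474717) measured 171, 423 and 785 against 1312, 1710.0 and 5435 FPKM, a ratio of group means of 6.13. Gastric intrinsic factor (Gif), which binds vitamin B12, measured 98.2, 145 and 259.6 against 337, 444 and 1066 FPKM. The lipase-related protein Pnliprp2 measured 1.18, 2.47 and 10.02 against 12.2, 18.7 and 104 FPKM. Each of these genes had its highest value at W2, and in all 3 each time point lay above the one before. Colipase (Clps), the cofactor of pancreatic lipase, measured 863, 1437 and 1832 against 1959, 3161 and 7482 FPKM. The chitinase Chia1 measured 6.48, 5.90 and 8.77 against 11.3, 14.1 and 98.4 FPKM. The defining member Bhlha15 measured 10.2, 11.1 and 10.4 against 9.43, 13.1 and 11.3 FPKM, a difference of 0.08. The lipase-related protein Pnliprp1 measured 0.705, 2.60 and 20.5 against 8.05, 4.93 and 20.7 FPKM. Bhlha15 and Pnliprp1 both overlapped, Pnliprp1 because of D3, where the pancreatic acinar list also had its highest sum. The part of acinar RNA in that value was not tested. Gastric lipase (Lipf) was listed at 0 FPKM at all 6 time points.

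Pepsinogen genes did not move as a unit. Progastricsin (Pgc, chr17:47726842-47734478) measured 463, 1214 and 1558 against 1753, 1847 and 10781 FPKM, and most of its difference of 1.77 ± 0.75 (SE) lay in the W2 library. Pepsinogen 5 (Pga5) measured 15711, 19819 and 22305 against 15901, 27728 and 6196 FPKM, so that its lowest value also fell at W2. Chymosin was abundant in both groups and overlapped, with its highest value at W1 (difference 0.92 ± 0.42 (SE)). At W3, after the period compared here, Cym measured 7718 FPKM and Pga5 689 FPKM. The lysosomal protease cathepsin D (Ctsd) was lower in late suckling stomachs, with 411, 635 and 353 against 248, 302 and 322 FPKM.

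Surface mucous genes stepped up earlier than the border between the groups. The gastrokines Gkn1 and Gkn2, secreted by pit cells, measured 250.96, 525 and 3611 against 2758, 4972 and 7693 FPKM and 356, 826 and 5455 against 3545, 6169.6 and 9986 FPKM. Trefoil factor 1 (Tff1), which is packed with surface mucus, measured 4586, 7388 and 19774 against 13670.4, 22787 and 39313 FPKM. In all 3 the step lay between D1 and D3 and D3 exceeded D5, so the groups overlapped despite differences of 2.60, 2.36 and 1.40. Without D3 all of them were apart, and 8 of 20 members of the list were separated upward in place of 3. Without D5 the number was 12. The pit cell mucin Muc5ac measured 3.95, 4.63 and 3.85 against 3.39, 4.40 and 94.3 FPKM, level until W1 and high at W2 alone. The neck and gland mucin Muc6 measured 7.15, 8.44 and 16.46 against 28.5, 17.8 and 51.9 FPKM, and A4gnt, the enzyme that caps gland mucin with alpha-1,4-linked N-acetylglucosamine, measured 6.42, 7.25 and 13.6 against 14.2, 18.4 and 55.4 FPKM. Muc6, A4gnt and the gland trefoil factor Tff2 were the separated members, Tff2 being named after its values were seen. Trefoil factor 3 (Tff3) was lowest at W1 and W2 and overlapped, with 12.7, 19.4 and 8.25 against 9.54, 3.59 and 1.21 FPKM.

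The tuft cell list summed to 82.6 FPKM at W2 against 30.9 to 39.7 FPKM elsewhere. Its member Avil alone held 36.1 FPKM of the W2 sum, with 3.35, 3.61 and 11.9 against 9.12, 15.6 and 36.1 FPKM, and overlapped. The cation channel Trpm5 measured 5.84, 4.14 and 3.30 against 2.58, 1.90 and 3.47 FPKM, and the tuft cell regulator Pou2f3 measured 0.916, 2.05 and 1.43 against 3.48, 1.15 and 2.71 FPKM. Both overlapped. Of 10 tested members, 2 were separated upward and 0 downward, and without D3, D5 or W1 the number upward was 5, 4 and 4. The alpha-gustducin gene Gnat3 measured 0, 0 and 0.205 against 0.0485, 0.102 and 3.13 FPKM, with its only value above 1 FPKM at W2.

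Most squamous forestomach genes had lower means in late suckling stomachs. Keratin 13 (Krt13, chr11:100117596-100121495), of internal stratified epithelia, measured 3510.1, 4703 and 1179.6 against 771, 679.9 and 730.4 FPKM (difference -1.89 ± 0.47 (SE)). Its partner keratin 4 (Krt4, chr15:101918535-101924735) measured 1701, 2559.6 and 592 against 319, 329 and 286 FPKM (difference -2.14 ± 0.48 (SE)). Both genes were apart, although most of the decline lay between D1 and D3. The basal keratin Krt5 measured 582, 681 and 272 against 432, 149.7 and 145 FPKM and the basal regulator Trp63 measured 17.54, 12.3 and 7.44 against 14.1, 2.36 and 3.47 FPKM. For these basal genes D5 exceeded D3, and the groups overlapped. Of 16 tested members of the squamous list, 3 were separated downward (Krt13, Krt4 and Sfn, the last named after its values were seen) and 0 upward (1 after median-ratio scaling), with a median of -0.97. The count downward was 8 without D3 and 11 without D5. The stress keratins Krt6b and Krt16 ran against the list, with 1.43, 6.07 and 34.0 FPKM and 1.87, 4.57 and 23.4 FPKM at D5, W1 and W2 after values of at most 2.96 FPKM in the perinatal libraries, and both overlapped because of D5.

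Several cornified envelope genes were lower in late suckling stomachs. Repetin (Rptn), a precursor of the cornified envelope, measured 161, 234 and 74.4 against 16.4, 23.6 and 35.7 FPKM (difference -2.51 ± 0.43 (SE), adjusted p = 0.323). The late cornified envelope gene Lce3a measured 143, 352 and 113 against 21.5, 51.2 and 46.4 FPKM. The protease Asprv1, which processes profilaggrin, measured 838, 1762 and 596 against 351, 234 and 361 FPKM. Cornifelin (Cnfn) measured 1089, 2274 and 714 against 452, 314 and 526 FPKM, and 8 of 25 tested members were separated downward in all, against 10.9% of all genes. Other members overlapped, among them loricrin (Lor), a main envelope protein, with 862, 4049 and 1825 against 2167, 1009 and 1872 FPKM. Keratin 1 (Krt1) measured 166, 593 and 379.8 against 1000.5, 243 and 477 FPKM and keratin 10 (Krt10) 226, 626 and 426 against 988, 286 and 608 FPKM. All 3 had their lowest value at E18.5. The highest value of the squamous list sum, 9936 FPKM, fell at D1, and that library also held the highest sum of macrophage and granulocyte genes (396 FPKM against 216 to 251.2 FPKM). Without D1 the number of cornified envelope members separated downward was again 8, and without D5 it was 14.

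**Figure D3:**
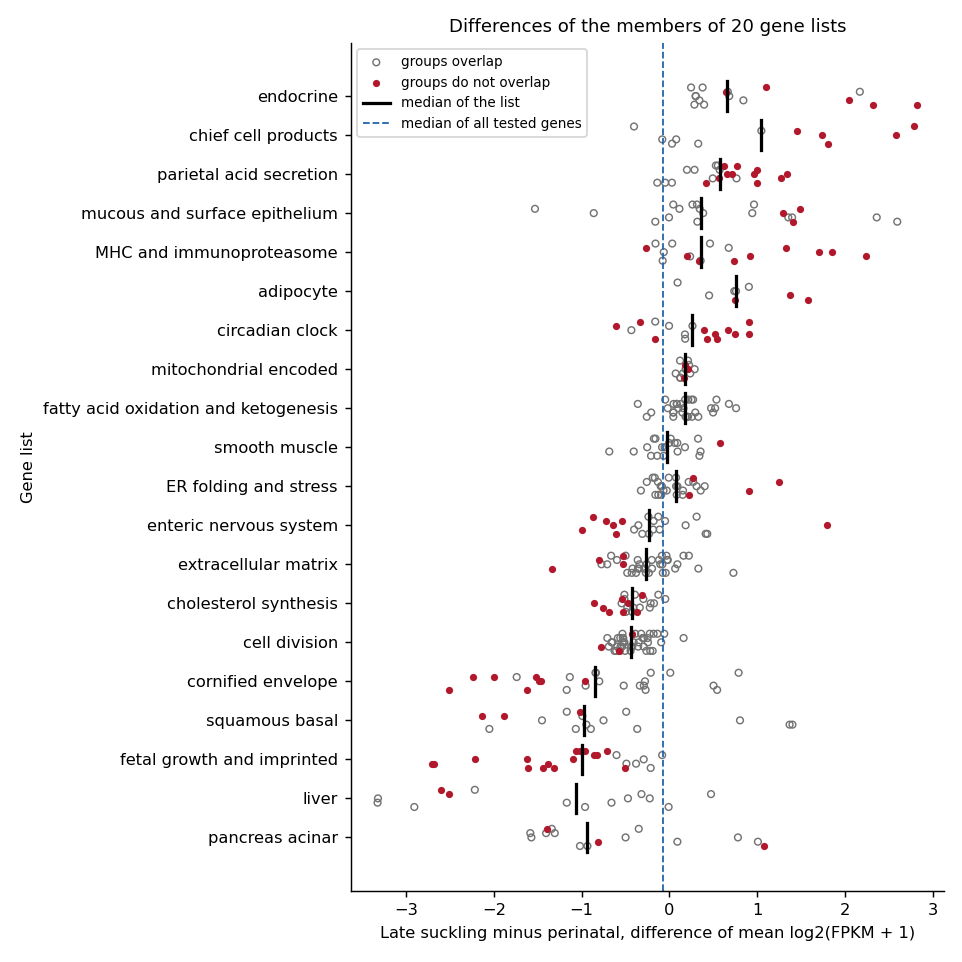
Difference of mean log2(FPKM + 1), late suckling minus perinatal, for each tested member of 20 gene lists. Filled points are members whose groups did not overlap, black bars are list medians, and the dashed line at -0.08 is the median of all tested genes; the endocrine points all lie right of 0 and the fetal growth points all lie left of it.

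Imprinted and fetal growth genes were lower without exception. All 22 tested members had a negative difference, with a median of -0.99, and 16 were separated downward with and without median-ratio scaling, against 10.9% and 7.56% of all genes. Insulin-like growth factor 2 (Igf2, chr7:142650768-142666869), the main fetal growth factor, measured 493, 405 and 208 against 143, 70.4 and 14.4 FPKM, and its difference was -2.68 ± 0.75 (SE). The neighbouring noncoding RNA H19 (chr7:142575532-142578146) measured 2189, 1590.5 and 735 against 598, 255 and 58.9 FPKM, and its difference was -2.71 ± 0.79 (SE). Dlk1, a membrane inhibitor of adipocyte differentiation, measured 371, 361 and 234 against 167, 98.1 and 17.7 FPKM. In all 3 each time point lay below the one before, so the decline ran through both groups rather than starting at their border. Cdkn1c, an inhibitor of cyclin-dependent kinases that limits growth, measured 374, 184 and 145 against 92.0, 78.8 and 47.3 FPKM. Mest and the zinc finger factor Plagl1 differed by -1.62 and -1.43. The growth gene list summed to 4752 FPKM at E18.5 and to 681 FPKM at W2. Leaving out one time point gave 16 to 20 separated members.

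Genes of cell division were lower as a group but rarely apart. Of 44 tested members, 43 had a negative difference, with a median of -0.44, and 3 were separated, the cyclins Ccnb1 and Ccnd2 and the centromere protein Cenpa, named after their values were seen. After median-ratio scaling 1 was separated upward and 1 downward. The proliferation marker Mki67 measured 27.0, 13.1 and 21.98 against 16.7, 12.8 and 9.5004 FPKM, and topoisomerase II alpha (Top2a) measured 47.8, 18.7 and 33.0 against 23.9, 23.3 and 15.7 FPKM. D1 was the lowest perinatal library for both and fell inside the late suckling range. Without D1, 40 of the 44 members were separated downward, and without D5 10. The promoter windows of 34 members matched a RefSeq entry, and 15 of these held the letters TTTGAA, on either strand, as did 17.9% of all windows.

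Cytosolic ribosomal protein genes were lower by a small and even amount. All 78 tested members had a negative difference, and the median was -0.35 as deposited and -0.27 after median-ratio scaling. The number separated downward was 34 as deposited but 4 after scaling. Rps24 measured 1966, 2006 and 1464 against 1259, 1279 and 1287 FPKM, with most of its decline between D1 and D3. Without D3, 75 members were separated, and without W2 55. The 13 genes encoded by mitochondrial DNA had a median difference of 0.18, and 3 of them, COX1, COX2 and ATP6, were separated upward (named after their values were seen), with 6 without D3 and 9 without W1. Of 80 nuclear genes of the respiratory chain, whose median was 0.08, 3 were separated upward, and 9 were without E18.5, 10 without D1 and 40 without D5, with 3 downward without D3. One of the 3 was the muscle-type subunit Cox7a1, with 34.1, 44.9 and 38.5 against 97.9, 102 and 224 FPKM.

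Genes of MHC class II antigen presentation were higher from D5 on. Class II molecules show peptides to helper T cells, are made mainly by dendritic cells, macrophages and B cells, and share a regulator that acts through a common set of promoter elements. The invariant chain Cd74 measured 5.94, 8.41 and 14.9 against 32.7, 39.9 and 78.4 FPKM (difference 2.24 ± 0.39 (SE), adjusted p = 0.323). The class II chain H2-Aa (chr17:34282751-34287771) measured 3.17, 5.18 and 8.24 against 14.3, 17.1 and 39.1 FPKM. H2-Ab1 measured 8.29, 10.8 and 11.7 against 21.95, 22.1 and 40.8 FPKM and H2-Eb1 1.36, 2.36 and 4.22 against 7.54, 8.43 and 16.7 FPKM. Each of these genes was higher at every step from E18.5 to W2 and was apart between the groups. The chaperone subunit H2-DMb1 and the peptide transporter Tap2 differed by 0.91 and 0.73. Of 17 tested members of the list, 8 were separated upward and 1, the proteasome activator Psme2, downward (Psme2 was named after its values were seen). The H2 chains have 4 entries each, 1 on chromosome 17 and the others on alternate scaffolds, and how the authors' counting divided reads among them is not given, so their levels are uncertain.

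Lists of immune cells gave mixed directions. Of 20 tested macrophage and granulocyte genes, 1 was separated upward, the chemokine receptor Cx3cr1, and 5 downward, which were Fcgr1 and the granule genes Mpo, Elane, Camp and Ltf (those outside the naming rule were named after their values were seen). Mpo measured 0.370, 2.20 and 0.255 against 0.0219, 0.0693 and 0.0232 FPKM and Elane 0.162, 1.22 and 0.285 against 0, 0 and 0 FPKM. Both exceeded 1 FPKM at D1 alone of the 6 time points. Camp measured 1.26 FPKM at D3 and 1.11 FPKM at W1. At E17.5, before the period compared, Ltf measured 32.6 FPKM and Mpo 0.186 FPKM. The macrophage receptor Csf1r measured 12.8, 16.3 and 15.6 against 19.1, 19.7 and 14.4997 FPKM, and the pan-leukocyte gene Ptprc measured 1.44, 1.08 and 1.55 against 1.65, 1.32 and 1.74 FPKM. The groups overlapped for both. The T cell genes Cd3e, Cd3g and Cd3d stayed below 1 FPKM in all 6 libraries. Cd4, a coreceptor of helper T cells and macrophages, was apart and higher with 0.506, 0.925 and 0.692 against 1.42, 1.10 and 1.48 FPKM. The kinase Lck, known from T cells, was apart and lower with 1.08, 1.02 and 0.783 against 0.653, 0.615 and 0.425 FPKM. Lck had its highest value of the series, 4.24 FPKM, at E12.5, where Cd3d and Cd3e were listed at 0 and Cd3g at 0.0625 FPKM. Which cells carried Lck was not tested. Without D1, 6 macrophage and granulocyte genes were separated upward and 6 downward, and without D3 2 and 8. The counts upward were 2, 2 and 3 without D5, W1 and W2. Interferon-induced genes were mostly lower where they were apart. Isg15 measured 7.03, 7.54 and 8.95 against 4.58, 2.74 and 4.28 FPKM, Ifi44 measured 1.02, 0.716 and 1.18 against 0.104, 0.143 and 0.227 FPKM, and 4 of 19 members were separated downward against 1 upward. The count downward was 8 without E18.5 and without W2. Of 8 mast cell genes 2 were separated upward and 0 downward. These were the proteases Mcpt1 and Mcpt2, with 0.809, 3.46 and 2.51 FPKM and 3.25, 12.1 and 9.26 FPKM at D5, W1 and W2 after at most 0.197 and 3.11 FPKM before, whereas carboxypeptidase A3 (Cpa3) measured 3.53, 4.02 and 5.76 against 3.97, 3.90 and 2.12 FPKM. Like Cd4, Mcpt1 reached 1 FPKM in late libraries alone of the 6 and entered the test only through them.

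The promoters of H2-Aa and H2-Eb1 are shown because these genes had parallel courses. The windows run from 250 bases before to 50 bases after the start of transcription in RefSeq on GRCm38.p6, and capitals mark the letters CTGATTGG, the form of the Y box of class II promoters that was searched for on both strands. The H2-Aa window is chr17:34287774-34288073 on the minus strand, and the H2-Eb1 window is chr17:34305617-34305916 on the plus strand.
H2-Aa: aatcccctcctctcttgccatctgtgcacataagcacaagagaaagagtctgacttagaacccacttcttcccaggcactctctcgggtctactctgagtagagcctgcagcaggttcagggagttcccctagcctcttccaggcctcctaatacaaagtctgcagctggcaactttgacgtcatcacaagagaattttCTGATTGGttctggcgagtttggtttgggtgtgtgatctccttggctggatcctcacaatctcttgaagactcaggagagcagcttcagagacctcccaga
H2-Eb1: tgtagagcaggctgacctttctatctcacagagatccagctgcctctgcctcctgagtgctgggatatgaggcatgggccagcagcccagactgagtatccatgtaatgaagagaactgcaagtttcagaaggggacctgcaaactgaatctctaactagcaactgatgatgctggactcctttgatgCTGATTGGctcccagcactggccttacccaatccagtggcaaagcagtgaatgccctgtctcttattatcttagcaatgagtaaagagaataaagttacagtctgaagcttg
The copy lies 51 bases before the start in H2-Aa and 62 bases before it in H2-Eb1. Of 14 list members with a window, 6 held these letters (H2-Aa, H2-Eb1, H2-K1, H2-D1, Tap1 and Psmb9, the last 4 named after the search), as did 4.1% of all 32851 windows. Only H2-Aa and H2-Eb1 of the 6 were separated between the groups as deposited.

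Several output genes of the circadian clock were higher, and 3 other clock genes were apart and lower as deposited. The clock is a transcriptional loop in which Bmal1 (Arntl) with Clock or Npas2 drives the repressors of the Per, Cry and Rev-erb families and output factors such as Dbp. Dbp (chr7:45705095-45710203) measured 5.87, 6.94 and 6.45 against 12.2, 12.9 and 13.7 FPKM (difference 0.91 ± 0.12 (SE), adjusted p = 0.273). Tef (chr15:81802673-81826863), a factor of the same family, measured 11.05, 10.4 and 12.2 against 22.7, 16.7 and 19.4 FPKM. The clock component Per3 (chr4:150997494-151044681) measured 1.49, 1.74 and 3.52 against 5.46, 4.44 and 4.73 FPKM. All 3 were apart between the groups and level inside the late group. The Rev-erb receptors Nr1d1 and Nr1d2 measured 11.9, 13.9 and 14.3 against 21.9, 16.54 and 21.7 FPKM and 4.82, 4.17 and 6.31 against 7.30, 6.59 and 9.19 FPKM. Hlf, another factor of the family of Dbp, measured 1.197, 1.28 and 1.73 against 3.35, 1.92 and 3.36 FPKM. Nfil3, which competes with Dbp for the same sites, measured 19.1, 14.54 and 13.3 against 10.8, 9.33 and 9.26 FPKM. In all 8 of 17 tested members were separated upward and 3, Nfil3, Arntl and Npas2, downward, the last 2 named after their values were seen. Without D5 the count downward was 5. After median-ratio scaling the counts were 9 and 2. The hour at which each stomach was taken is not given in the sources used here, and its part in these values was not tested. At W3, W6 and W8 Dbp measured 3.31, 2.66 and 3.81 FPKM.

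Promoters of Per3 and Tef are printed to show the elements known for clock control that a search of these letters found. Capitals mark TTATGTAA, the D box to which Dbp, Tef and Hlf bind, in Per3, and CACGTG, the E box, in Tef. The windows are chr4:151044616-151044915 on the minus strand for Per3 and chr15:81802423-81802722 on the plus strand for Tef, from RefSeq on GRCm38.p6.
Per3: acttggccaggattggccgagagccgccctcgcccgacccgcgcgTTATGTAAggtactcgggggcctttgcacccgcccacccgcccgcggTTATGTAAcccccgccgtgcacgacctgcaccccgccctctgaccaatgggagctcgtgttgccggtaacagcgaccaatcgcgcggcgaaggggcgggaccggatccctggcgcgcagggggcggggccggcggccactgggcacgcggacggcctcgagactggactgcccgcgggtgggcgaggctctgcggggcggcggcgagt
Tef: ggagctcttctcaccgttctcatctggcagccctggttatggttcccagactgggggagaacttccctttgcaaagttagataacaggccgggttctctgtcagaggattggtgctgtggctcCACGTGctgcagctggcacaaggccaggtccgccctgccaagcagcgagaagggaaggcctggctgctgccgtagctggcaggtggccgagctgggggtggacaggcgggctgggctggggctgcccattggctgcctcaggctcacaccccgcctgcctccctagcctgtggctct
The Per3 window held 2 copies, 205 and 158 bases before the start, and the Tef window 1 copy, 127 bases before the start, in the more upstream of 2 windows that RefSeq gives for Tef. The other window also held 1 copy, 138 bases before the start. TTATGTAA occurred in 0.938% of all windows and in 1 of 14 clock members with a window. CACGTG occurred in 7.15% of all windows and in 4 of the 14, which were Per1, Cry1, Tef and Bhlhe41. The groups of Tef and Bhlhe41 were apart, and those of Per1 and Cry1 overlapped (Bhlhe41 and Cry1 were named after their values were seen). Per1 measured 11.1, 7.74 and 6.12 against 6.83, 4.97 and 5.52 FPKM.

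Genes of sterol synthesis had lower means in late suckling stomachs. None of 23 tested members had a positive difference, the median was -0.42, and 8 were separated downward. The count was 14 without D1, 13 without D3 and 16 without D5. Farnesyl diphosphate synthase (Fdps) measured 211, 172 and 129 against 125, 112 and 67.5 FPKM. Acat2, which makes acetoacetyl-CoA at the head of the pathway, measured 47.8, 34.0 and 31.6 against 25.2, 24.3 and 18.99 FPKM. Both were lower at each step and apart between the groups. The letters ATTGG, the core of the inverted CCAAT box, occurred in 15 of the 16 members with a promoter window and in 37.4% of all windows. A member counted if any of its windows held the letters, so the count per gene and the share per window are unlike measures.

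Fatty acid oxidation and ketogenesis were not separated between the groups. Cpt1a, which admits long-chain fatty acids to mitochondria, measured 23.4, 50.5 and 60.6 against 55.0, 56.6 and 63.3 FPKM. Its lowest value was at E18.5 and the libraries from D1 on overlapped, and 0 of 31 members were separated, although 26 had a positive difference. The number separated upward was 7 without D3, 5 without D5, 1 without W1 and 2 without W2. In fatty acid synthesis the desaturase Scd2 had its highest value at E18.5, with 191, 49.3 and 43.0 against 47.4, 37.96 and 27.2 FPKM. Acacb, the carboxylase that restrains fatty acid entry into mitochondria, was apart and higher, with 1.58, 2.11 and 3.70 against 4.68, 4.15 and 7.75 FPKM.

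Connective tissue genes that were apart were lower in the values as deposited. Of 38 matrix genes 4 were separated downward and none upward (1 upward after median-ratio scaling), and their median was -0.26. Without D1 14 were separated downward and without D5 15, and without W2 the median was -0.0013. Fibrillin 2 (Fbn2), of fetal microfibrils, measured 23.8, 12.4 and 15.3 against 8.79, 7.08 and 3.29 FPKM, and lysyl oxidase (Lox), which crosslinks collagen and elastin, measured 65.5, 42.1 and 46.8 against 40.5, 29.9 and 19.3 FPKM. The smooth muscle list had a median of -0.03 as deposited and 0.05 after median-ratio scaling, with its highest sum at D5 (16255 FPKM) and its lowest at W2 (7282 FPKM). Smoothelin (Smtn), of contractile smooth muscle, was its separated member, with 64.5, 68.3 and 82.0 against 142, 92.4 and 93.1 FPKM. Without D3, 3 smooth muscle genes were separated upward and 1 downward, and without D5 1 upward and 7 downward.

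Neuronal genes of the gut wall were more often lower than higher. Of 21 tested members, 6 were separated downward and 1 upward, with a median of -0.23. Without D1 10 were separated downward, and without D3 or W1 3 upward. The endothelin receptor Ednrb (chr14:103814615-103844476), which enteric neural progenitors need, measured 26.9, 24.4 and 22.2 against 15.1, 11.3 and 9.53 FPKM (difference -0.99 ± 0.18 (SE)). The growth-cone protein Gap43 measured 44.7, 45.5 and 44.4 against 33.8, 28.9 and 14.2 FPKM, and stathmin 2 (Stmn2), of growing neurites, measured 38.5, 39.5 and 38.2 against 28.9, 28.3 and 19.3 FPKM. Gap43 and Stmn2 were level over the perinatal time points. Neuropeptide Y (Npy) was the member that was higher, with 1.70, 4.94 and 4.82 against 8.74, 9.36 and 37.96 FPKM.

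Several fat cell genes were higher in the late suckling group. Besides Adipoq, the lipid droplet protein Plin4 measured 2.44, 3.15 and 3.26 against 7.93, 4.98 and 4.40 FPKM and adipsin (Cfd) measured 0, 0.0771 and 0 against 0.407, 0.929 and 5.96 FPKM. These were the 3 separated members of 8 tested, against 5.5% of all genes, and 6 were separated without D3 and 5 without D5. Of the 6 time points, Adipoq and Cfd reached 1 FPKM in late ones alone. They thus entered the test only through the group where they were high. Fabp4, which vessels and macrophages express too, measured 78.1, 93.5 and 254 against 237, 298 and 175 FPKM and overlapped, with its step between D1 and D3. Perilipin 1 (Plin1) stayed under 1 FPKM. Fat attached to the organ and fat cells inside its wall cannot be told apart in whole stomachs.

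Steroid and stress genes gave mixed values. Fkbp5, a target of the glucocorticoid receptor, measured 14.02, 12.55 and 7.53 against 4.73, 4.71 and 4.85 FPKM (difference -1.06 ± 0.21 (SE)). Hsd11b2, which inactivates corticosterone, measured 4.62, 4.63 and 7.92 against 11.3, 15.9 and 15.8 FPKM (difference 1.21 ± 0.22 (SE), adjusted p = 0.323). Both were apart, in opposite directions. The immediate early gene Fos measured 8.12, 24.0 and 9.72 against 15.9, 60.9 and 36.1 FPKM, and Egr1 measured 6.67, 18.45 and 8.203 against 14.7, 46.2 and 27.8 FPKM. These were highest at W1 and W2, and D1 exceeded D5. Adrenomedullin (Adm), a vasodilator peptide induced by low oxygen, measured 1.57, 3.02 and 2.80 against 4.66, 4.90 and 7.36 FPKM, whereas Ndrg1, also raised by low oxygen, measured 308, 119.7 and 89.2 against 65.8, 82.1 and 55.7 FPKM.

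In iron handling 2 of 17 tested genes were separated upward and 2 downward, and in detoxification 2 and 3 of 33, the latter close to the shares of all tested genes. Without D3, 5 detoxification genes were separated upward and 8 downward. The gene Hamp of hepcidin, the hormone that blocks iron export, measured 2.02, 5.55 and 4.98 against 1.66, 0 and 0 FPKM. The hepcidin gene Hamp2 did not share this course, with 0, 1.71 and 4.08 against 2.29, 5.09 and 13.53 FPKM. Its highest value fell at W2, and its groups overlapped because D3 exceeded D5. The duodenal ferric reductase Cybrd1 measured 19.1, 10.4 and 17.0 against 23.8, 36.4 and 36.2 FPKM. Ferroportin (Slc40a1), the iron exporter, measured 20.9, 18.1 and 21.2 against 14.4, 15.46 and 12.9 FPKM. Hamp and Slc40a1 were lower and Cybrd1 higher in every late library. The aldehyde dehydrogenase Aldh3a1 measured 0.398, 1.67 and 2.27 against 4.37, 7.91 and 89.3 FPKM, with W2 far above the rest, and the glutathione transferase Gstt1 measured 10.7, 15.98 and 20.9 against 26.4, 30.2 and 35.7 FPKM, higher at each step. Among antimicrobial proteins, Slpi, an inhibitor of neutrophil elastase, measured 505, 1253 and 341 against 232, 194 and 235 FPKM, and Bpifb1 measured 4829.5, 6147 and 8707 against 7762, 11845 and 5336 FPKM and overlapped.

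Of 26 epithelial regulators 2 were separated upward and 1 downward, and of 21 mesenchymal regulators 2 and 2, against 5.5% and 10.9% of all genes. After median-ratio scaling the mesenchymal counts were 4 and 2. Epithelial counts were 7 upward and 4 downward without D3, 11 and 3 without D5, and 2 and 5 without W2. Mesenchymal counts were 5 and 3 without D3, and 2 and 11 without D5. Foxa2, a regulator of endodermal epithelium, was apart with 12.8, 11.8 and 16.7 against 17.502, 23.1 and 32.8 FPKM. Sox2, of the squamous and anterior stomach, measured 39.8, 30.7 and 20.2 against 36.0, 16.3 and 18.46 FPKM and overlapped. The signals Bmp4 and Wnt4 were apart in opposite directions. Bmp4 measured 25.8, 22.9 and 32.6 against 42.5, 39.6 and 37.9 FPKM, and Wnt4 measured 49.7, 86.9 and 44.4 against 34.8, 28.7 and 28.2 FPKM. Of 49 morphogen pathway genes 3 were separated upward and 4 downward, close to the shares of all tested genes. Without D5, 14 were separated downward, and without D3 and W1 8 and 7 upward.

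**Figure D4:**
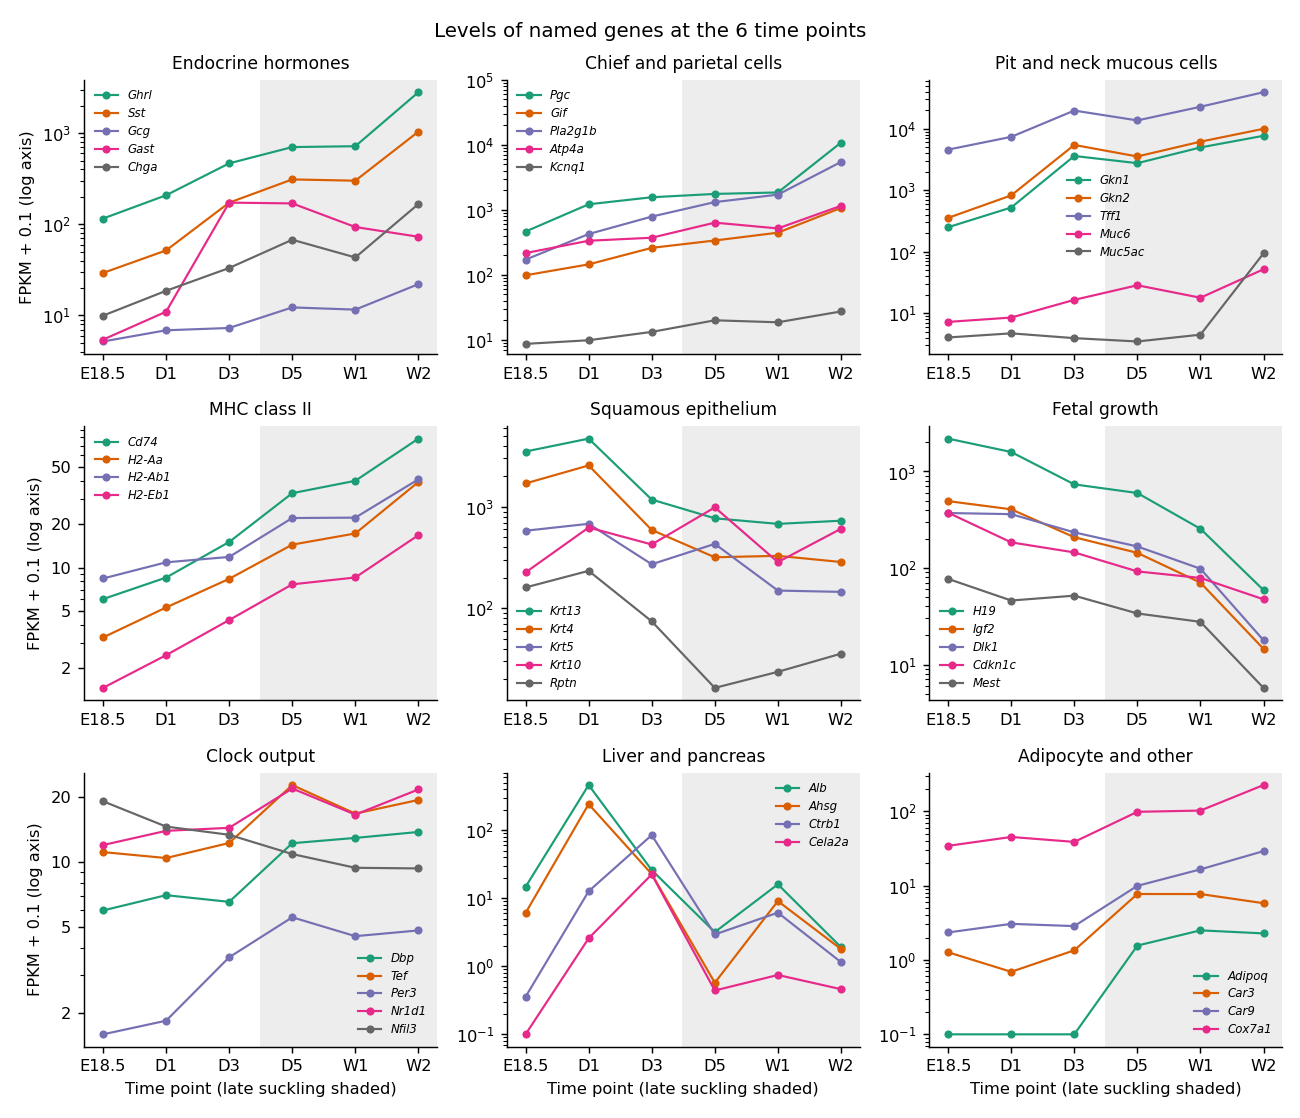
FPKM plus 0.1 on a log axis for named genes at the 6 time points, in 9 panels by function, with the late suckling time points shaded. Gast, Gkn1 and Gkn2 step up between D1 and D3, Muc5ac stands out at W2, and Alb and Ctrb1 peak at D1 and D3.

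Values beyond the 6 time points place the contrast in the course of the series. Olfm4 measured 55.1 FPKM at E17.5, peaked at E18.5 and was at 3.22 FPKM at W3. Car9 went on from 28.9 FPKM at W2 to 81.1 FPKM at W3 and 111 FPKM at W8. Car3 measured 11.4 FPKM at W3 and 2.33 FPKM at W6. H19 measured 3854 FPKM at E15.5 and 7.13 FPKM at W8, and Ghrl held between 2116 and 2819.6 FPKM from W2 to W8.

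**Figure D5:**
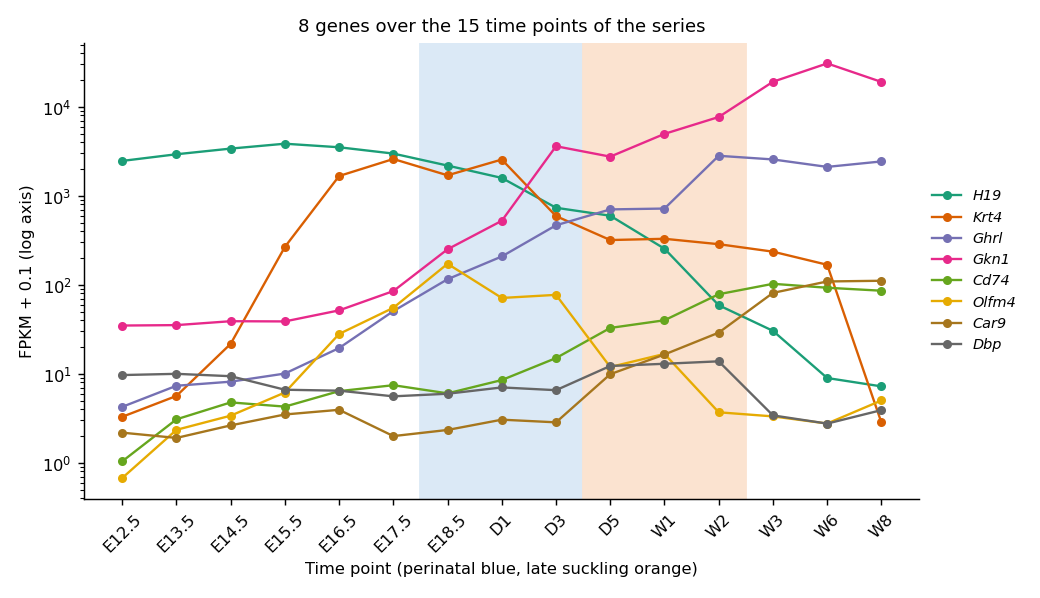
FPKM plus 0.1 on a log axis for 8 genes at all 15 time points, with the perinatal time points shaded blue and the late suckling ones orange. H19 declines through both shaded groups, Olfm4 peaks at E18.5, Dbp is higher at D5, W1 and W2 than at any other time point, and Car9 and Gkn1 go on to higher values after W2.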

How the data were processed

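RNA-seq of whole stomach was measured in 1 transcriptome for each of 15 time points, and 6 were compared here. The authors deposited FPKM values for 46966 entries per sample, in the layout of Cufflinks with RefSeq identifiers; positions in these files count from 0 and are printed from 1. The study's methods name FastQC, HISAT2, StringTie and GENCODE, whereas the submitters' processing notes list Bowtie 0.12.2, FastQC and GRCm38.p2, so which tool made the deposited values is uncertain. The number of reads is not given in the files, and counting intervals were not computed.

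Entries were added up by symbol, and symbols whose highest value among the 6 time points was 1 FPKM or more entered a fit on log2(FPKM + 1) by limma 3.58.1 (R 4.3.3), with a variance prior that follows mean expression and Benjamini-Hochberg adjustment at 0.05. Scripts used Python 3.11.15, numpy 2.4.6, pandas 2.3.3, scipy 1.17.1 and matplotlib 3.10.9, and were tested on simulated data. Groups came from the ages in the labels; p-values measure the spread between time points, each of 1 sample. Alternatives were median-ratio, quantile and fixed-sum scaling, other pseudocounts and filters, an unmoderated test, a fit on all 15 time points and leaving out each time point. As no gene passed, the genes named are the 15 of smallest unadjusted p in each direction whose groups did not overlap and whose direction was the same with median-ratio scaling, and in each list up to 3 defining members and the 6 of largest absolute difference. Others are marked where they appear. The comparison, the genes and the lists were chosen with earlier results of these data known. Promoters came from RefSeq windows on GRCm38.p6. In every motif count a gene with several windows counted once if any of them held the letters. The shares of all windows count each window singly. Some genes are not reported here.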

Additional observations from a re-analysis of the deposited data

How the results depend on the processing

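No gene passed an adjusted p under 0.05 in the alternatives that changed the pseudocount, the filter, the entries summed, the scaling or the variance prior. The unmoderated test called 1 gene higher, and the limma fit on all 15 time points called 5 higher and 1 lower. Leaving out a time point gave 0 to 1 genes higher and 0 to 4 lower, and with median-ratio scaling in addition 0 to 1 in each direction. Without D3 the 4 genes lower were Fam57a, Krt13, Krt4 and Upk3bl, without E18.5 the gene lower was LOC102638769, and without D5 and W1 the genes higher were Snora78 and LOC102638998. Counts at an unadjusted p under 0.05 ran from 314 to 754 higher and 451 to 1714 lower when a time point was left out, and from 403 to 1235 higher and 420 to 939 lower with median-ratio scaling as well. Counts of separated genes ran from 1185 to 1694 higher and 2081 to 4599 lower, and with median-ratio scaling from 1629 to 2796 higher and 1671 to 2656 lower, since 2 values against 3 are separated more easily than 3 against 3. Quantile normalization gave 890 genes higher at an unadjusted p under 0.05 and 1363 separated higher. A fixed sum without the 10 highest genes gave 508 genes lower at an unadjusted p under 0.05, and 1328 separated higher and 760 lower. The cause of these shifts was not tested. The alternatives that combine scaling with a left-out time point, and the alternatives of the counts at an unadjusted p and of separated genes, were chosen after seeing the data. Signs under alternatives were compared for 131 of the named genes. Of their 3398 differences, none changed sign except those of Lor, Muc5ac and Pga5 without 1 time point. The other named genes, Bhlha15 among them, were left out of that count. With and without median-ratio scaling, leaving out a time point gave from -0.076 to 2.25 for Muc5ac and from -0.94 to 0.21 for Pga5. The sign turned without W2 for both, and for Lor without D1 or W1, with a range from -0.76 to 0.45. Of 46 lists, the medians of 3, for smooth muscle, macrophages and granulocytes, and iron handling, changed sign under another scaling, and 19 did under some alternative. No paired analysis was possible because the groups hold different ages and share no animal or batch number that pairs them. With 1 library per time point the difference between animals of the same age was not measured, and counting error was not computed.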
